A study of Mus musculus with 11 samples.

Results

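In hybrid mice that carry 1 BL6 and 1 CAST copy of each autosome, most hippocampal genes gave about equal numbers of reads from both copies, and 10 genes gave nearly all of theirs from the CAST copy. The 9 described below are Hjurp, Myo3a, Gstm7, Sfi1, Hist1h4m, Hist1h2al, Gpr15, Dnah8 and Gstp2. The 10 were chosen from the allele-resolved counts as the autosomal genes with at least 50 allelic reads (reads assigned to either copy) and a BL6 share of 15% or less in each of the 11 mice. The BL6 share is the BL6 reads over the BL6 plus CAST reads of a gene. Predicted genes, genes with Rik clone names and -ps pseudogenes were left out by symbol, and 12667 genes of the 55401 in the tables then met the read minimum. The 10 genes are 0.07895% of the 12667. The share itself chose them, so it is given below as a description with no test.

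The mice were 11 female F1 animals of reciprocal crosses between BL6, the strain of the reference genome, and CAST, a wild-derived strain, and polyadenylated hippocampal RNA gave 1 library per mouse. The 5 old mice were 101 to 104 weeks old, of which 3 had a BL6 mother and a CAST father and 2 a CAST mother and a BL6 father. The 6 young mice were 8 to 9 weeks old, with 3 of each cross. The labels name no treatment and no engineered allele, and no parental inbred animals are among the groups used here. The file headers call the non-CAST allele i4fb, read here as BL6. Whether that parent carried an engineered allele was not checked. Each library held between 111.1 and 214.8 M counts, with 39.7 to 76.9 M of them assigned to an allele, of which 50.39% to 51.1% came from BL6.

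In such hybrids a copy difference that stays with the strain, whichever parent gave it, can reflect sequence on or near the chromosome itself. One that follows the mother or father is a sign of imprinting. Lost or weakened alleles of the reference strain, genes present in other numbers in the other strain, and short reads that cannot be placed between near-identical genes all can give a one-sided count. Some of the genes below belong to families of related genes. Glutathione transferases join glutathione to foreign and oxidised compounds, and replication-dependent histone genes lie in clusters of nearly identical coding sequences. The libraries were of polyadenylated RNA, and how fully they capture transcripts of such histone genes was not tested.

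The coding sequences show how alike some of these genes are to a relative. They are from GENCODE M21 transcripts on GRCm38, the reference (BL6) sequence, written 5′ to 3′ along the transcript, with capitals at the bases that differ within each pair. The first pair is Hist1h4m, which gave CAST reads, and Hist1h4n, which gave BL6 reads. Their 312 coding bases are identical, and the first 100 are shown.
Hist1h4m: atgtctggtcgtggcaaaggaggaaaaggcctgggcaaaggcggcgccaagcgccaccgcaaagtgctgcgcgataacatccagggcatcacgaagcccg
Hist1h4n: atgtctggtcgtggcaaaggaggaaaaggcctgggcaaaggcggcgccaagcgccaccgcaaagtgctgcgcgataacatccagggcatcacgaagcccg
Hist1h2al differs from Hist2h2aa1 at 2 of 339 aligned bases, and both differences fall in the stretch shown, which is bases 118 to 217 of the Hist1h2al transcript and coding bases 133 to 232 of Hist2h2aa1.
Hist1h2al: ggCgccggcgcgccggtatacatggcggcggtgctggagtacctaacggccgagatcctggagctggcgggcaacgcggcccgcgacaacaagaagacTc
Hist2h2aa1: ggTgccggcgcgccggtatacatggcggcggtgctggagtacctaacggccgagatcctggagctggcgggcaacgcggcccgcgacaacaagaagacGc
Gstp2 differs from Gstp1 at 12 of 633 coding bases, of which 6 are in coding bases 263 to 362.
Gstp2: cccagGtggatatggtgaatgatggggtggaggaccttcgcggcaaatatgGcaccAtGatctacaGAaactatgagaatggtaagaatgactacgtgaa
Gstp1: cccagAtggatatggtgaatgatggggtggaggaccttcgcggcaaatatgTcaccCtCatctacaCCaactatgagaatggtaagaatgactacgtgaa
Gstm7 is shown for contrast, since its nearest relative by identity over most of the coding sequence, Gstm2, differs at 90 of 638 coding bases, 25 of them in coding bases 305 to 404.
Gstm7: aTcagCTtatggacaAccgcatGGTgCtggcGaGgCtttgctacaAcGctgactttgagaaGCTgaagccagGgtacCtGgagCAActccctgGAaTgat
Gstm2: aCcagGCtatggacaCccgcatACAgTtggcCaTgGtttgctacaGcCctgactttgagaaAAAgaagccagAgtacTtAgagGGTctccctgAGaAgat

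Among the 12667 genes, 88.87% had a pooled BL6 share (all mice summed) of 40% to 60%. At the edges, 19 genes had a pooled share of 15% or less and 42 of 85% or more. By the mirrored rule, 85% or more from BL6 in every mouse, there were 24 genes (0.1895%). By count there were thus fewer genes on the CAST side than on the BL6 side, a difference that was not tested.

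**Figure D1:**
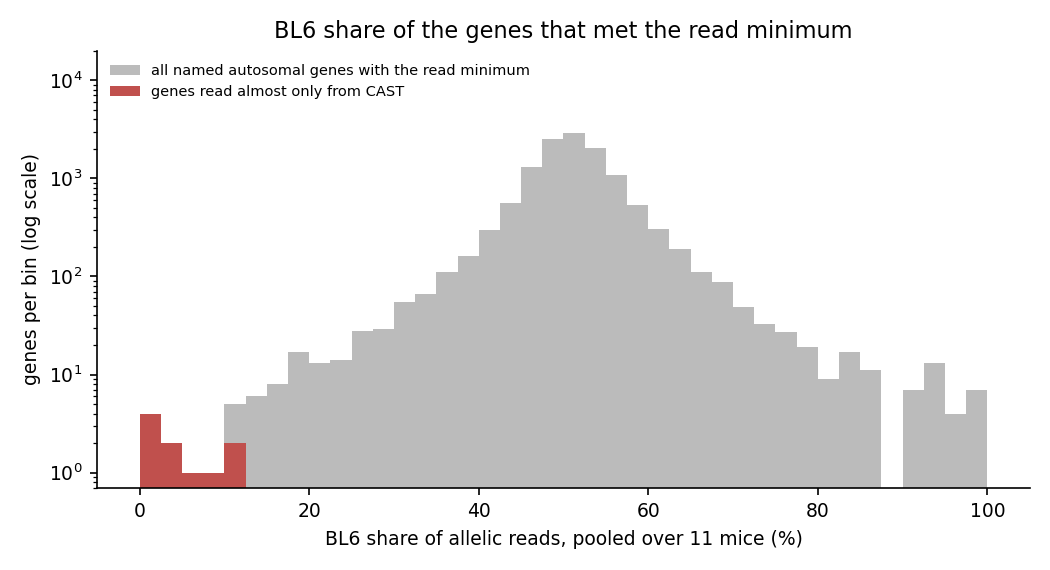
Number of genes (log scale) by BL6 share pooled over the 11 mice, in 40 equal bins, for the 12667 genes with the read minimum (grey) and the 10 genes read almost only from CAST (red). The bulk of genes is centred near 50%, and the 10 genes lie between 0.25% and 12.28%.

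The 2 glutathione transferases of the group differ in level and in how strictly they were read from CAST. Gstm7, a mu-class enzyme (chromosome 3, 107926334 to 107931817, minus strand, 8 exon blocks), was the most abundant of the 10 genes per length, with a TPM (the authors' level per transcript length, scaled to a fixed sum per library) of 44.2 in the lowest mouse, 66.8 in the median and 109.0 in the highest. It had a mean of 1541 allelic reads per mouse, 17.37% of its counts. Its BL6 share was 10.23% in the lowest mouse, 11.97% in the median and 14.995% in the highest, so this gene sits closest to the limit of the rule. A BL6 copy was therefore read in every mouse, at 1 read for every 7.145 from CAST.

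Gstp2, a pi-class enzyme (chromosome 19, 4040285 to 4046023, minus strand, 9 exon blocks), had a lower level, with a TPM of 3.04, 5.06 and 7.93 in the lowest, median and highest mouse. It gave 45 BL6 and 1178 CAST reads in all, a pooled share of 3.68%. In the old mice the share was 2.31%, 7.69%, 7.81%, 6.34% and 2.08% in replicates 1 to 5, and in the young mice 2.50%, 1.72%, 1.54%, 0.89%, 3.26% and 1.75% in replicates 1 to 6. The shares of 3 old mice stood above all young mice, and the other 2 lay within the young range. Each value rests on 57 to 144 allelic reads, and the exact 95% binomial interval of the highest, 10 of 128 reads, was 3.81% to 13.898%, which covers counting error only.

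Of the 13 glutathione transferase genes with the read minimum these 2 were the only ones with a pooled share of 15% or less, and the median of the 13 was 52.61%. The other mu-class genes with at least 100 allelic reads lay between 39.58% (Gstm2) and 55.83% (Gstm4), with Gstm1 at 50.6%, Gstm5 at 52.61% and Gstm6 at 54.55%. The pseudogene Gstm2-ps1, which matches Gstm7 at 82.44% over 638 bases, lay on the other side, with 99.51% of 1419 reads from BL6. Gstp1 pointed the other way, with 79.45% from BL6 (73.64% to 89.05% over mice). Gstp1 was also the larger of the pair, with a mean of 6620 counts per library against 412.3 for Gstp2, and the reads of both summed gave a BL6 share of 69.52%. By arithmetic the pair's sum lies between the 2 shares, and it was not at 50%. Most of its allelic reads were from Gstp1 (8107, against 1223 from Gstp2). A pseudogene, Gstp-ps, matches the Gstp2 transcript at 99.21% over 631 bases and had a mean of 437.0 counts per library, with 0 allelic reads.

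Hist1h4m and Hist1h2al, both on chromosome 13, are described next, with the histone chaperone gene Hjurp. Hist1h4m (21811746 to 21812147, plus strand, 1 exon) encodes histone H4, a core protein of the nucleosome. Its BL6 reads numbered 1, 0, 3, 6 and 0 in old replicates 1 to 5 and 2, 2, 10, 4, 26 and 2 in young replicates 1 to 6, out of 188 to 467 allelic reads per mouse. The corresponding shares ran from 0.00% to 5.57%, with a median of 0.92% and the 2 highest values in young replicates 3 and 5. The pooled share was 1.81%, and 1.142% without young replicate 5. In the old mouse with 0 of 351 reads, a share of up to 0.855% cannot be seen at this depth.

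Hist1h4n, its twin by coding sequence, had 92.02% of 451 allelic reads from BL6, and only 4.368% of its counts were assigned to an allele, against 52.23% for Hist1h4m. Over the 13 histone H4 genes with reads, pooled shares ran from 1.81% (Hist1h4m) to 98.96% (H4c6), with 1 gene at 15% or less and 5 at 80% or more. The 5 BL6-sided H4 genes each had under 5% of their counts assigned to an allele (0.2157% in H4c4 to 4.368% in Hist1h4n). Summed over the 13 genes, 37.46% of 111224 reads came from BL6, with 35.61% to 40.05% in single mice. By arithmetic such a sum lies between its lowest and highest gene, and it was not at 50%. H4c3 and H4c12 gave the most reads (35089 at 42.6% and 22893 at 34.03% from BL6), against 3093 from Hist1h4m.

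Hist1h2al (51202727 to 51203065, minus strand, 1 exon) resembles the H2A genes and is annotated as a processed pseudogene. It was the most one-sided of the 10 genes, with 9 BL6 and 3552 CAST reads, a pooled share of 0.25%. No BL6 read was seen in 4 mice, old replicates 3 and 4 and young replicates 4 and 5, and the highest share was 1.04% (2 of 193 reads) in young replicate 3. For young replicate 4, the deepest of these, 0 of 578 reads allows a share of up to 0.519%. Hist2h2aa1 (H2ac18 in the tables) is 99.41% identical over 339 bases, but had 92 allelic reads in all, 48.91% of them from BL6. A better-read near copy, Hist2h2ac (98.23% identical over 339 bases), had 69.05% of 2708 reads from BL6. Summed with Hist1h2al it gave a BL6 share of 29.97%. The H2A genes with at least 100 allelic reads, 12 in number, ranged from 0.25% to 89.5%, with 3 at 80% or more. At 15% or less were 2, Hist1h2al and Hist1h2ao (2.905% of 241 reads, 92.62% identity). The 18 H2A genes with any reads summed to 49.91% of 69326 reads. Most of these reads, 55570, were from H2aw alone, at 50.95%, so the sum says little about the one-sided genes. On the opposite strand, the predicted microRNA gene Gm44341 covers 109 bases of Hist1h2al and had 0.06935% of 1442 reads from BL6. Whether the counting used strand is not given in the sources used here, so the reads of these overlapping genes cannot be told apart. Of all 25 genes with a histone symbol and the read minimum, Hist1h4m and Hist1h2al had a pooled share of 15% or less. The median of the 25 was 46.66%.

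Hjurp (chromosome 1, 88262471 to 88277633, minus strand, 7 exon blocks) encodes the chaperone that places the centromeric histone CENP-A. Its shares were 2.74%, 4.57%, 3.07%, 4.82% and 4.73% in old replicates 1 to 5. In young replicates 1 to 6 they were 5.68%, 6.51%, 5.08%, 6.08%, 6.69% and 3.33%. The old mice lay at the lower end, with young replicate 6 among them. Only 8.032% of Hjurp counts were assigned to an allele, a value that ranks at percentile 2.992 among the 12667 genes, which leaves 300 to 521 allelic reads per mouse. No other gene matched the Hjurp transcript at 80% identity over 100 bases or more.

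**Figure D2:**
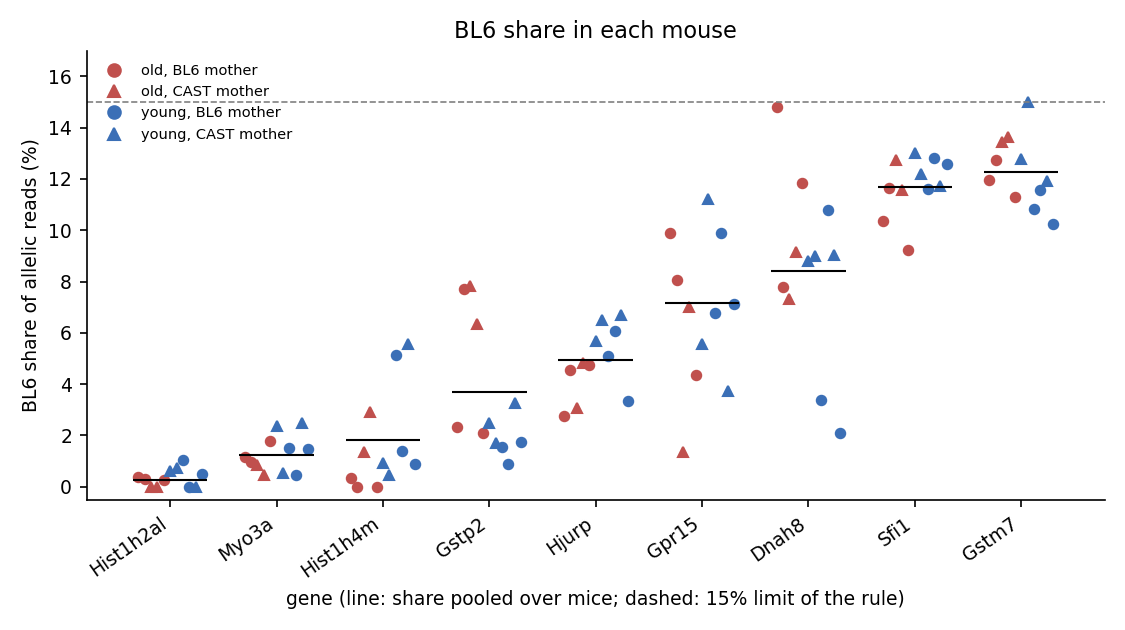
BL6 share in percent of allelic reads for each of the 9 genes described (horizontal axis, ordered by pooled share, black line) in each of 11 mice, red for old and blue for young, circles for a BL6 and triangles for a CAST mother. All points lie under the 15% limit by the rule; Dnah8 spreads over 12.73 points and Hist1h2al over 1.036.

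Both motor protein genes were low in level per length (TPM). Myo3a (chromosome 2, 22227503 to 22618252, plus strand, 34 exon blocks) encodes an unconventional myosin best known from the stereocilia of hair cells. It had a TPM of 0.256 to 0.890 over mice, at percentile 1.2 of the 12667 genes, and 79.31% of its counts were assigned to an allele. With 31 BL6 and 2507 CAST reads, its share was 0.44% in the lowest, 1.17% in the median and 2.49% in the highest mouse. No similar gene was found for Myo3a, whose 250 windows of 100 bases had 0.0% in common with any other gene's transcripts. It is thus the most one-sided gene of the 10 that has neither a near copy nor an overlapping gene.

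Dnah8 (chromosome 17, 30624354 to 30877365, plus strand, 98 exon blocks) encodes an axonemal dynein heavy chain, a motor of sperm tails and motile cilia. Its TPM was 0.359, 0.775 and 1.158 in the lowest, median and highest mouse, and 8.78% of its counts were assigned. The share was 2.08% in young replicate 6 (2 of 96 reads) and 14.81% in old replicate 1 (16 of 108 reads), with a median of 8.99%. The exact 95% intervals, which cover counting error only, were 0.253% to 7.324% and 8.712% to 22.941%, and the upper one runs past the 15% limit. An antisense gene, AC165951.2, overlaps 443 of its 26820 exonic bases and had 0 BL6 reads of 471, which allows a share of up to 0.637%. As above, reads of the 2 strands cannot be told apart.

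Sfi1 (chromosome 11, 3131850 to 3193463, minus strand, 31 exon blocks) encodes a centrin-binding protein of the centrosome and had the most allelic reads, a mean of 6712 per mouse, or 24.93% of its counts. Its TPM was 25.5 in the lowest, 48.6 in the median and 73.6 in the highest mouse. The BL6 share was 10.35%, 11.65%, 12.74%, 11.57% and 9.24% in old replicates 1 to 5. In young replicates 1 to 6 it was 13.00%, 12.19%, 11.62%, 12.81%, 11.74% and 12.58%. The values span 3.756 points and the 2 ages overlap. The predicted gene Gm2420 matches Sfi1 at 94.08% over 1369 bases and gave equal shares (50.51% of 2839 reads). Drg1, a gene for a GTP-binding protein on the same strand, shares 167 of the 7559 exonic bases of Sfi1 and had 51.18% of 49400 reads from BL6, and reads of those bases cannot be told apart.

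Gpr15 (chromosome 16, 58717433 to 58719070, minus strand, 1 exon) encodes a G-protein-coupled receptor that directs T cells to the gut. It had the fewest reads of the 10 genes, with 56 to 116 allelic reads per mouse and a TPM of 0.523 to 1.331. Its share was lowest in old replicate 3, 1.35% (1 of 74 reads, exact 95% interval 0.034% to 7.301%), 7.02% in the median mouse and highest in young replicate 2, 11.21% (13 of 116 reads, 6.104% to 18.402%). Each share rests on few reads, and the intervals cover counting error only. Gpr15 shares 204 of its 1638 exonic bases with Cpox, a haem synthesis gene on the other strand, which had 53.52% of 52448 reads from BL6. Reads of the shared bases cannot be told apart.

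**Figure D3:**
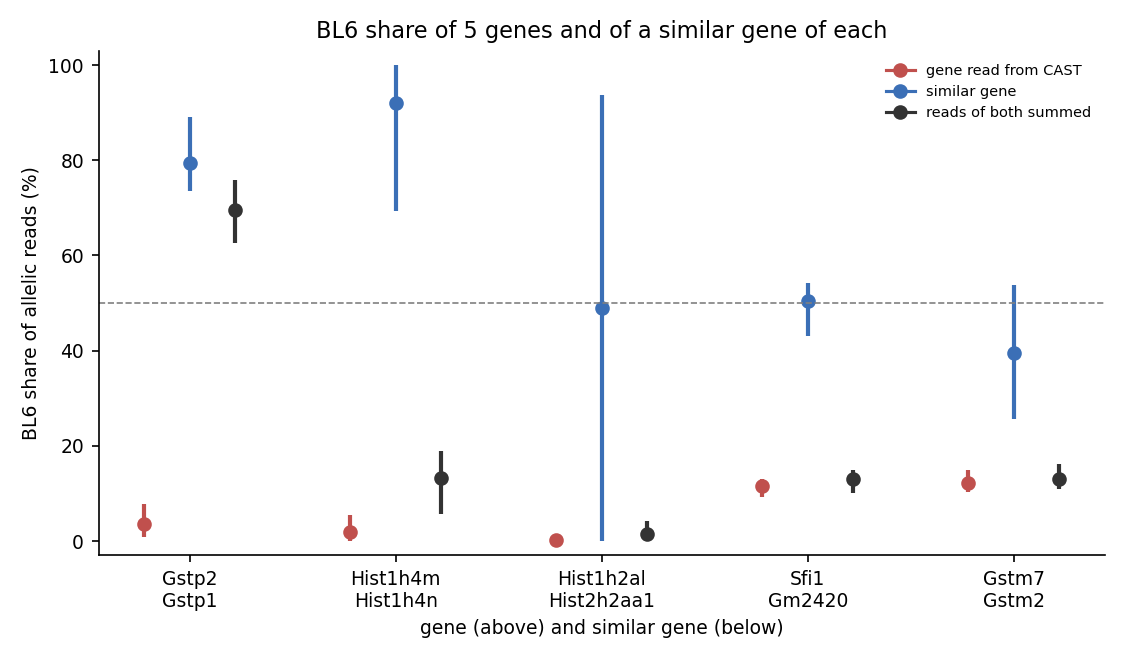
BL6 share in percent for 5 of the genes (red), for a gene of similar sequence (blue) and for the reads of both summed (black); points are shares pooled over 11 mice and lines run from the lowest to the highest mouse. Gstp1 (79.45%) and Hist1h4n (92.02%) lie above 50%, and the sums with Sfi1 and Gstm7 (13.11% and 12.96%) hold few reads of the similar gene (2839 of Gm2420 and 432 of Gstm2).

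The 10 genes did not form a chromosomal cluster. Only Hist1h4m and Hist1h2al share a chromosome, 29.39 Mb apart, and no 2 lay within 500 kb. By annotation 9 are protein-coding and 4 of the 10 have a single exon block, against 3.339% of the 12667 genes. In 7 of the 10 at least 1 window of 100 bases also occurs in another gene's transcripts, against 31.56% of 12609 genes with such windows. A shared window is not always a copy elsewhere. Gpr15, Dnah8 and Sfi1 match overlapping genes at 100% over 204 (Cpox), 444 (AC165951.2) and 167 (Drg1) bases. In Hist1h4m (87.5% of windows) and Gstp2 (62.86%) most windows are shared, as is the case for 3.244% of all. The share was 16.67% in Hist1h2al, 6.494% in Gpr15, 2.892% in Dnah8 and 1.905% in Sfi1, and 0.0% in Hjurp, Myo3a and Gstm7. The median TPM of the 10 genes was 12.67, against 11.71 for all, but Myo3a, Gpr15 and Dnah8 were at percentiles 1.2, 2.905 and 2.921. In mean allelic reads per mouse the 10 genes had a median of 302.5, against 1465 for all. Their median exonic length was 1620 bases against 4685.

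None of the genes in a chosen list of known variant BL6 alleles was among the 10 genes. The labels say BL6 without a substrain, and whether the BL6 parent carried each allele was not checked. The mitochondrial transhydrogenase gene Nnt, which has lost exons in C57BL/6J, gave 38.68% and 37.45% of reads from BL6 under its 2 identifiers. Mx1, an antiviral GTPase gene with an exon deletion in BL6, came closest with 8.797% pooled over 557 reads. It had at most 15% in 9 of the 11 mice and as few as 31 reads. Its relative Mx2, with a frameshift, had 16.53% of 1494 reads and at most 15% in 5 mice. H2-Ea, an MHC class II gene whose promoter is deleted in the BL6 haplotype, had 0 BL6 reads of 71 and missed the read minimum. Gabra2, a GABA-A receptor subunit gene with an intronic deletion in C57BL/6J, had 32.06% of 85169 reads from BL6. Cdh23 (51.86%), Slc11a1 (41.55%), Cyfip2 (51.32%) and Crb1 (78.35%), whose listed variants change splicing or protein or occur in the C57BL/6N substrain, were not low in BL6 share. Pla2g2a, Nlrp12 and Ifi202b had 6, 41 and 0 allelic reads in all. In total level, 1 gene of this list passed the age test of edgeR described next, Slc11a1, a metal transporter gene of macrophages (log2 difference 1.00, SE 0.16, adjusted p = 0.0313). Slc11a1 kept that call in 2 of 11 fits with 1 mouse left out, and its adjusted p over all alternatives ran from 2.67e-07 to 0.433. By mother 0 of the 11 measured entries of the list passed in edgeR and in DESeq2, and 0 were under an unadjusted p of 0.05. Of the 19 entries of genes around the mitochondrial NADPH reactions of Nnt, 0 passed by age or by mother in either tool, and 0 were under an unadjusted p of 0.05.

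Total levels were compared between old and young mice, a comparison that the rule did not use. Here levels are CPM, counts scaled to library size by TMM, which are not per length. By edgeR's quasi-likelihood test with mother as a term, 0 of the 10 genes passed an adjusted p of 0.05, where 0.322% of 31355 genes did. At an unadjusted p under 0.05, 2 passed (Gstp2 and Hist1h2al), against 12.4% of all genes, and DESeq2 also called 0 of the 10. The median log2 difference, old minus young, was 0.18 over the 10 genes, with 7 above 0 and 3 below, and -0.01 over all genes tested.

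Gstp2 was at 3.183, 2.817, 2.732, 3.625 and 3.143 CPM in old replicates 1 to 5. It was at 2.703, 2.534, 2.392, 2.145, 2.288 and 2.398 CPM in young replicates 1 to 6. The ages did not overlap, which was so for 1.84% of all genes tested, but the gap between the nearest values was small. The means were 3.10 ± 0.354 (SD, n = 5) and 2.41 ± 0.193 (SD, n = 6) CPM, a log2 difference of 0.37 (SE 0.13, edgeR adjusted p = 0.339; 0.147 to 0.731 over the alternatives). Markers of microglia, the resident macrophages of the brain, differed between the ages without overlap too: their summed level over all 5 genes was 185.3 to 213.2 CPM in old and 106.9 to 175.2 CPM in young mice, with 0 of the 5 called by edgeR, 1 called by DESeq2, all 5 under an unadjusted p of 0.05 and none at 0. Their part in the Gstp2 values was not tested, and in bulk tissue fewer cells of a type and less RNA per cell cannot be told apart.

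Hist1h2al was at 2.985, 3.862, 4.331, 4.586 and 3.919 CPM in the old mice. The young mice had 2.089, 2.375, 2.285, 4.670, 2.562 and 2.756 CPM. Young replicate 4 was the highest of all 11, and the other 5 young mice lay below all old mice. The log2 difference was 0.50 (SE 0.21, edgeR adjusted p = 0.387), and 0.72 without young replicate 4, still short of the threshold (adjusted p = 0.078).

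Gstm7 averaged 65.7 ± 8.93 CPM (SD, n = 5) in old and 50.5 ± 15.9 CPM (SD, n = 6) in young mice, a log2 difference of 0.37 (SE 0.19, edgeR adjusted p = 0.447). Young replicate 5 had 77.75 CPM, the highest of all mice, so the ages overlapped. The other 6 genes described had log2 differences between -0.11 (Hjurp) and 0.29 (Dnah8). All 6 markers of hippocampal neurons were present, with sums of 786.4 to 1174 CPM (median 1093) in old and 522.7 to 1217 CPM (median 697.2) in young mice. Their median log2 difference was 0.46, with 0 of the 6 called by edgeR or DESeq2 and 3 under an unadjusted p of 0.05, and their part in the Gstm7 values was not tested. Markers of neighbouring tissue varied widely between mice, and their part in the values was not tested. Choroid plexus markers (6 genes) summed to 23.52 to 997.8 CPM in old and 20.45 to 936.6 CPM in young mice. Thalamus markers (5 genes) summed to 140.6 to 288.7 CPM in old and 156.3 to 846.1 CPM in young mice. The sum of 8 striatal markers ran from 115.6 to 886.2 CPM in old and from 104.9 to 2504 CPM in young mice. These striatal sums were highest in old replicate 3 and young replicates 2 and 6. Without these 3 mice, Gstp2, Hist1h2al and Gstm7 had log2 differences of 0.47, 0.39 and 0.35, and again 0 of the 10 genes was called by edgeR. In the same comparison edgeR called 1 of 19 tested glutathione transferase genes (Gstt3, of the theta class, with a log2 difference of 1.02 and an adjusted p of 0.023, called in 4 of 11 fits with 1 mouse left out). It called 0 of 68 histone genes, with 7 under an unadjusted p of 0.05 and 1 called by DESeq2.

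**Figure D4:**
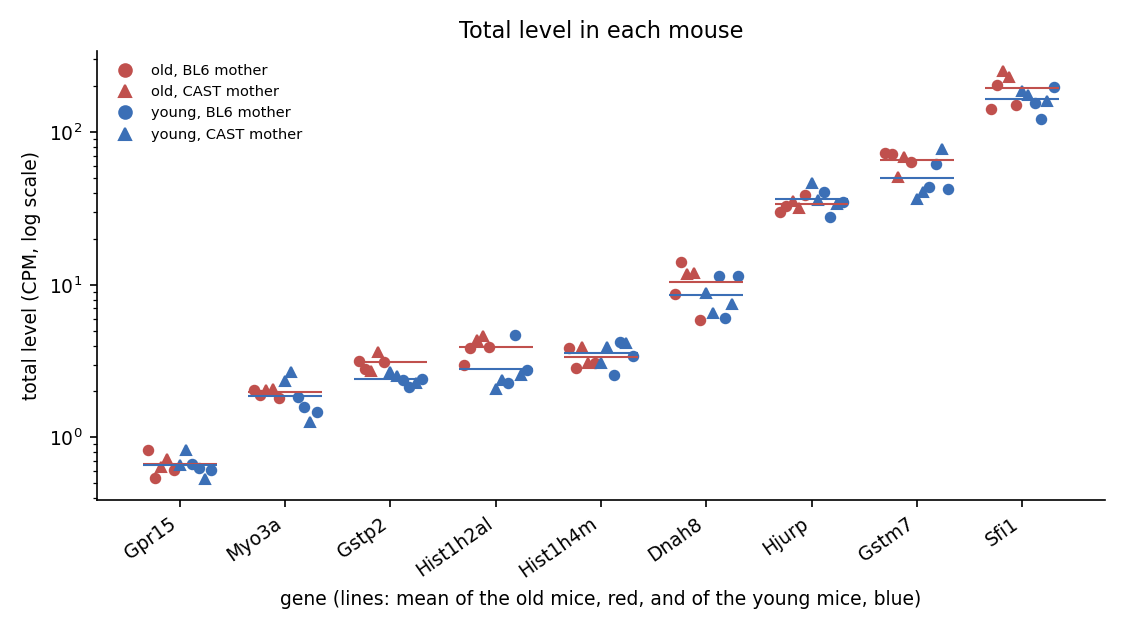
Total level in CPM (log scale) of the 9 genes described in each of 11 mice, red for old and blue for young, circles for a BL6 and triangles for a CAST mother, with the mean of each age as a line. Levels run from under 1 CPM (Gpr15) to 251.2 CPM (Sfi1), and only the points of Gstp2 separate the ages.

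The direction of the cross asks whether the mother's strain moves the total level of a gene that is read almost only from one strain. By edgeR, 0 of the 10 genes passed, where 0.21% of 31355 genes did. None was under an unadjusted p of 0.05 (2.15% of all genes), and DESeq2 also called 0. Sfi1 came nearest. With a CAST mother it averaged 200.1 ± 38.4 CPM (SD, n = 5) and with a BL6 mother 161.9 ± 32.4 CPM (SD, n = 6), a log2 difference of 0.31 (SE 0.15, edgeR adjusted p = 1.0). Next by p was Myo3a, with a log2 difference of 0.25, which was 0.12 without young replicate 2 and 0.09 without the 3 mice with most striatal markers. Hjurp had 0.09, which ran from 0.01 (without young replicate 1) and 0.02 (without young replicate 4) to 0.15 (without old replicate 5 or young replicate 3). The levels by mother overlapped in all 10 genes, as against 0.402% of all genes without overlap. Of the 5 thalamus markers, 3 were under an unadjusted p of 0.05 by mother in edgeR, with 0 called and a median log2 difference of 1.16. Their part in the levels by mother was not tested.

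Whether the few BL6 reads changed with age was asked in the allele-resolved counts, with the mouse as a term. The rule caps the share in every mouse and thereby limits this difference, which is a contrast of ages and not the share itself. By edgeR, 0 of the 10 genes passed, where 0.154% of 24707 genes did. At an unadjusted p under 0.05, 4 passed, against 7.95% of all genes. The log2 ratio of BL6 to CAST reads of Gstp2 was higher by 1.52 in old mice (SE 0.48, edgeR adjusted p = 0.321; 0.194 to 0.682 over the alternatives). Its pooled counts are 45 BL6 reads in all. Sfi1, with many more reads, was lower by a log2 difference of -0.15 (SE 0.06, edgeR adjusted p = 0.462). Hist1h4m was lower by -2.09 (SE 0.82, edgeR adjusted p = 0.496), a value that rests on 10 BL6 reads in old and 46 in young mice, 26 of the latter in young replicate 5. Without that mouse the difference was -1.05 (edgeR adjusted p = 0.693). The fourth was Hjurp, at -0.52.

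The maternal copy was compared with the paternal copy in the same allelic counts. The rule needs a low BL6 share in both crosses, so genes with a large effect of parent of origin could not be among the 10, and a count of 0 here says little about it. For the maternal over the paternal copy, edgeR called 0 of the 10 genes, where 0.874% of 24707 genes passed, and 3 were under an unadjusted p of 0.05, against 4.84% of all. Gstm7 had a log2 difference of -0.12 (SE 0.04, edgeR adjusted p = 0.521). Its BL6 share had a median of 11.43% (10.23% to 12.73%) with a BL6 mother and of 13.43% (11.94% to 14.995%) with a CAST mother, and the ranges overlapped. Hist1h4m was at -0.99 and Sfi1 at -0.06 (edgeR adjusted p = 0.988 for both), and Hist1h4m at -0.47 without young replicate 5. For comparison, the imprinted gene Peg3, read from the paternal copy, had a BL6 share of 0.02195% to 0.0637% with a BL6 mother and of 99.81% to 99.96% with a CAST mother, and Meg3, read from the maternal copy, 99.91% to 99.96% and 0.08802% to 4.2%. The allele columns and the cross labels thus matched in all 11 mice for these imprinted genes.

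**Figure D5:**
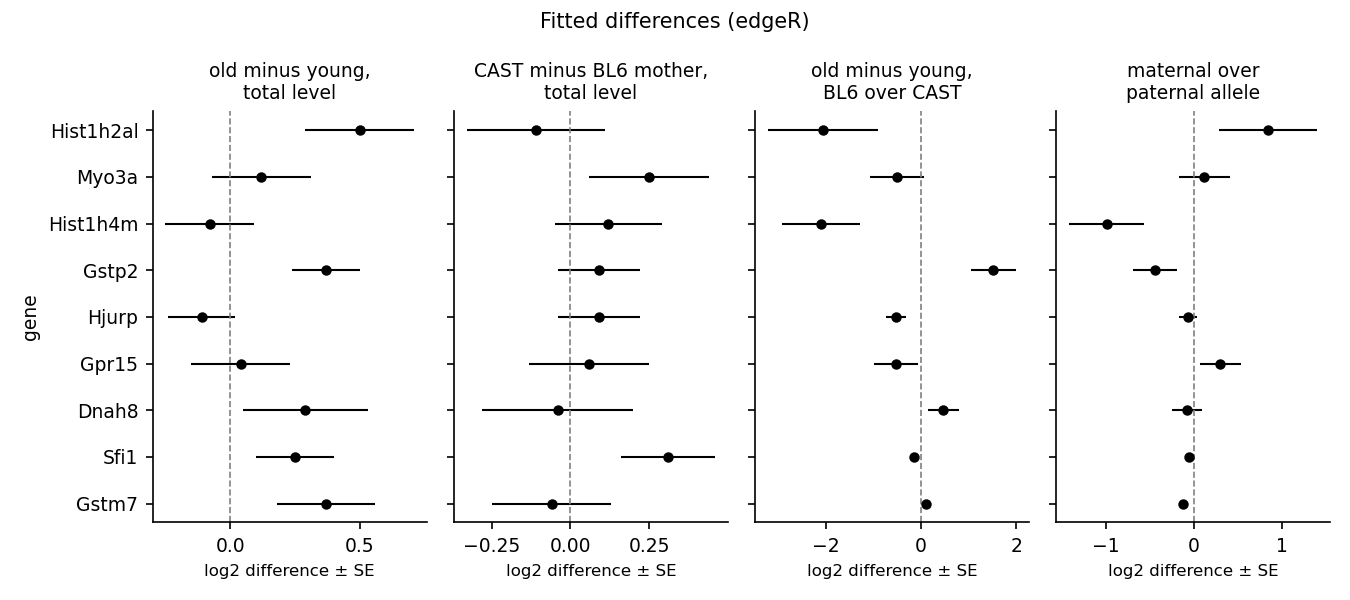
Fitted log2 differences with SE (edgeR) for the 9 genes described (vertical axis) in 4 comparisons, from left to right old minus young total level, CAST minus BL6 mother total level, old minus young ratio of BL6 to CAST reads, and maternal over paternal reads. No gene passed the adjusted threshold, and in the 2 allelic panels on the right Hist1h2al, with 9 BL6 reads in all, has the longest SE bars.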

How the data were processed

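Hippocampal RNA of 11 mice was measured, 1 library per mouse. Per the submitters' processing notes, bcl2fastq 2.20, Trim Galore 0.6.6, HISAT2 2.1.0, SAMtools 1.10 and featureCounts of Subread 2.0.0 were used with GRCm38. Not given in the sources used here are the annotation release, the strand setting and how reads were assigned to alleles. Deposited by the authors were whole-number counts per gene, counts per gene and allele, and TPM per gene. Per the file headers the allele columns are called i4fb, read here as BL6, and cast.

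The BL6 share, its range and the total level were computed from these tables. Positions are from GENCODE M21, matched by identifier for 55141 of 55401 genes. Similar genes were found with blastn 2.17.0 between transcripts (at least 80% identity over 100 bases) and by exact windows of 100 bases taken every 20 bases. Total counts were fitted with edgeR 4.0.16 in R 4.3.3 (TMM scaling, filterByExpr, quasi-likelihood test, terms for age and mother). For autosomal genes averaging 10 or more allelic reads per mouse, the allelic counts were fitted with terms for mouse, BL6 allele, maternal allele and both by age. P-values were adjusted by Benjamini-Hochberg over all genes tested, and SE is the absolute log2 difference over the square root of F. Both fits were run on simulated counts. The simulated allelic counts were centred on equal shares and do not cover BL6 shares as low as those of the 10 genes. Alternatives were DESeq2 1.42.0, RLE scaling, no filter, other read minimums and shares, and leaving out mice. The numbers of mice per group limit the precision of each comparison, and exact binomial intervals (95%) and the 3-read floor for a count of 0 cover counting error only.

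The 10 genes and all lists were chosen with earlier results of these data known. Of the 10 genes, 9 are named, and 1 is not reported here though it stays in the counts, medians and tests over the 10. The 3 with the smallest p are given per test with none past the threshold, and the 3 genes nearest to each side of the 15% limit are given by value. Genes of the lists of known BL6 alleles and of similar genes are named as examples. Symbols of histone genes follow the tables where these are newer than the annotation (H4c6). All samples' labels name separate mice.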

Additional observations from a re-analysis of the deposited data

Results flagged for a closer look

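Each of the 10 genes was examined for a mouse apart from the rest of its age group, in BL6 share and in total level, 40 groups of values in all. In 1 of them a single mouse stood far from the others. Hist1h2al had a total level of 4.67 CPM in young replicate 4, against 2.089 to 2.756 CPM in the other 5 young mice, a gap of 0.742 of the range of the group. About 1 in 20 groups would be picked out by chance. Young replicate 4 also had 578 allelic reads of this gene, 0 of them from BL6, and without it the log2 difference between ages of Hist1h2al was 0.72 (edgeR adjusted p = 0.078).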

How the results depend on the processing

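The number of genes chosen moved with the rule. It was 6 at 10% or less and 17 at 20% or less in every mouse, 19 with the pooled share, and 68 with predicted, Rik and -ps names kept. It was 15 and 7 with read minimums of 20 and 100, from 10 to 12 when 1 mouse was left out, and 11 without old replicate 3 and young replicates 2 and 6, an alternative chosen after seeing the data. The mirrored BL6 rule gave 42 genes at 20% and 18 at 10%, against 24.

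In all alternatives of the 4 tests 0 of the 10 genes was called, with adjusted p of at least 0.0763 (age), 0.847 (mother), 0.194 (BL6 share by age) and 0.127 (maternal copy). The 3 genes named per test kept their direction in each alternative, with sizes that moved by over 1.5 times for Hist1h4m without young replicate 5 and for Myo3a and Hjurp by mother. The count over all genes for age, 101 by edgeR, was 528 by DESeq2, 14 to 241 with 1 mouse left out and 15 without the 3 mice with most striatal markers. For mother, 66 became 29 without these 3 mice. For the BL6 share by age, 38 became 22 to 169 with 1 mouse left out. The causes were not tested. Pooled shares of the 10 genes moved by less than their SD over mice when any 1 mouse was left out. A pooled value over this many mice can hardly move by an SD when 1 is left out. Staying under that limit was thus nearly certain beforehand and says nothing about how stable the shares are. For Hist1h4m the pooled share went from 1.81% to 1.142% without young replicate 5. These alternatives were also added after seeing the data. Depth limits Gpr15, Gstp2 and Dnah8 most, with as few as 56, 57 and 89 allelic reads in a mouse. Old and young mice were separate animals, so the ages could not be paired, and the replicate numbers used here only name mice. The 2 allelic tests compare both copies within each mouse.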

Other observations

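The limit of 15% in every mouse falls in a continuous range of values. Just inside it were Gstm7, Dnah8 and Sfi1, with highest shares of 14.995%, 14.815% and 12.996%. Just outside were Rpl6, a ribosomal protein gene (15.264%), Cenps, a gene of a kinetochore and DNA repair protein (16.092%), and Mrps33, a mitochondrial ribosomal protein gene (17.893%). With a read minimum of 20 in place of 50, 5 further genes met the rule: Cyp2c70, Ly6c2, Lyz1, Sult3a1 and Timd2. These names were chosen after their values were seen.

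The names left out by symbol hold more one-sided genes than the names kept. Of 3799 predicted, Rik and -ps genes with the read minimum, 58 (1.527%) met the CAST rule otherwise, and 67 met the mirrored BL6 rule. The 58 included 38 processed pseudogenes and 3 protein-coding genes.

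Of the 10 genes, 2 have 10% or less of their counts assigned to an allele (Hjurp and Dnah8), as did 4.129% of the 12667 genes, and 4 have 60% or more (among them Myo3a, Gpr15 and Hist1h2al), as did 21.86%. Over the 9 genes described the share of counts assigned to an allele ran from 8.032% (Hjurp) to 79.31% (Myo3a), and the median over the 10 was 39.6%, against 43.95% for all.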
